A study of Mus musculus with 16 samples.

Results

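Lung cells of mice given BIBO3304 and seeded pancreatic ductal adenocarcinoma (PDAC) cells were compared with lung cells of mice given vehicle and seeded PDAC cells. The samples were those that the deposited cell table marks as IV with the condition BIBO or control, which gave 4 of the 15 samples and 26174 of the 80449 cells. The mark IV was taken to mean that PDAC cells had been seeded: 308 of 312 cells annotated as cancer lie in samples with it. Sympathetic neurons release norepinephrine and neuropeptide Y (NPY), and NPY acts through receptors coupled to inhibitory G proteins. NPY1R is the receptor that BIBO3304 blocks, and it is known for constricting blood vessels through smooth muscle. The peptidase DPP4 trims NPY at the cell surface and so turns it away from NPY1R. The comparison addresses what NPY1R blockade changes in lung cells once PDAC cells have been seeded.

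The BIBO3304-PDAC group held 2 samples with 5466 and 4737 cells, and the vehicle-PDAC group held 2 samples with 6814 and 9157 cells. The table marks all 4 as IV. Vehicle-PDAC 2 held no annotated cancer cell, and whether it was unseeded or carries a wrong label was not tested. Mice given BIBO3304 without PDAC cells (3 samples) and vehicle without PDAC cells (3 samples) served for the test of whether the effect of the drug differed once PDAC cells were present. Samples of mice given 6-OHDA, a toxin of sympathetic terminals, entered the fits so that all groups shared an estimate of spread. The sources used here give no strain, age, dose, route, time after seeding or PDAC line. No source says that the numbered samples are separate mice, and a p-value then reflects only how these samples vary, which may be technical.

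BIBO3304-PDAC 1 and 2 held 18096496 and 10916216 transcripts, and vehicle-PDAC 1 and 2 held 32580698 and 27639435. The median cell held 2417 and 1623 transcripts in BIBO3304-PDAC 1 and 2, against 3411 and 2411 in vehicle-PDAC 1 and 2. Vehicle-PDAC 2 stood apart, which touches every value below. It held 0 cancer cells among 9157 cells, which allows a share of up to 0.0328% by counting error, while the other 3 samples held 33, 73 (BIBO3304-PDAC 1 and 2) and 56 (vehicle-PDAC 1). Xist, the RNA that coats an inactive X chromosome, marked the cancer cells at 172 and 226 CPM (a transcript's count scaled to a common library total) in BIBO3304-PDAC 1 and 2, against 319 CPM in vehicle-PDAC 1. Over all cells Xist stood at 8.90 and 22.3 CPM in BIBO3304-PDAC 1 and 2, against 19.2 and 0.0724 CPM in vehicle-PDAC 1 and 2. Vehicle-PDAC 2 thus lacked this transcript of the cancer cells as it lacked the cells. Over cells other than cancer cells, genes that span over 100 kb made up 19.6% and 19.05% of transcripts in BIBO3304-PDAC 1 and 2, against 25.8% and 16.4% in vehicle-PDAC 1 and 2. Its share of alveolar macrophages (44.5%) was also the highest of the 4. The main values below hold this sample, and values without it are given beside most of the results that rest on it.

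Counts were summed per sample and annotated cell type, and the sums were tested with edgeR's quasi-likelihood test in 19 of the 22 types, where each of the 4 samples held 24 to 4075 cells. Alveolar type 1 and club cells had too few cells, and cancer cells are described apart. Marker lists of the annotated types were highest in the type of the same name in each of these 19 types, with the smallest excess in general capillary endothelium (0.91 on the log2 scale over the next type) and monocytes (0.99). Levels below are CPM of the summed cells after TMM scaling, and log2 fold changes with their standard error (SE) are BIBO3304-PDAC over vehicle-PDAC. A gene passed when its p, adjusted by the Benjamini-Hochberg method over all genes of its type, was under 0.05.

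Between BIBO3304-PDAC and vehicle-PDAC, 51 genes passed in 9 of 19 types. The chaperone genes Hspa8, Hspe1 and Hspa5 rose, with Hspa8, the constitutive cytosolic Hsp70, past the threshold in 4 types, while interstitial macrophages held 33 of the 38 falls. Of 113537 tests of a gene in a type, 13 were called higher (0.0115%) and 38 lower (0.0335%), and 8652 had an unadjusted p under 0.05. In interstitial macrophages 36 of 6443 genes passed (0.559%), 3 higher and 33 lower. The calls depended on single samples. Each of the 51 was lost in at least 1 of the 4 fits that left out a sample, and 10 stayed without vehicle-PDAC 2, 33 without vehicle-PDAC 1, 6 without BIBO3304-PDAC 1 and 5 without BIBO3304-PDAC 2. The number of genes called was 290 without vehicle-PDAC 2, 116 without vehicle-PDAC 1, 31 without BIBO3304-PDAC 1 and 7 without BIBO3304-PDAC 2.

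The genes of the NPY and norepinephrine pathways did not pass in any type. Of the 9 genes of NPY ligands, receptors and Dpp4, only Npy1r and Dpp4 were counted deeply enough to be tested, in 13 tests together. By edgeR 0 passed and 2 reached an unadjusted p under 0.05. DESeq2 called 0, and gave no adjusted p for 6 of the 13. Npy1r, the gene of the receptor that BIBO3304 blocks, was tested in alveolar fibroblasts, where it stood at 7.88 and 10.9 CPM in BIBO3304-PDAC 1 and 2, against 3.81 and 3.75 CPM in vehicle-PDAC 1 and 2. Both BIBO3304-PDAC samples lay above both vehicle-PDAC samples, on 28 and 11 transcripts in BIBO3304-PDAC against 19 and 9 in vehicle-PDAC. The log2 fold change was 1.22 ± 0.41 (adjusted p = 0.269), which did not pass, nor did it without vehicle-PDAC 2 (1.19, adjusted p = 0.289). Smooth muscle cells and pericytes held 5 and 1 Npy1r transcripts in BIBO3304-PDAC 1 and 2, against 16 and 0 in vehicle-PDAC 1 and 2, so the receptor could not be tested there. In cancer cells there were 0 and 1 Npy1r transcripts in BIBO3304-PDAC 1 and 2, against 0 in vehicle-PDAC 1.

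Dpp4 had a negative log2 fold change in 10 of 12 types and passed in none. In cancer cells, described apart, Dpp4 stood at 18.3 and 17.7 CPM in BIBO3304-PDAC 1 and 2, against 7.32 CPM in vehicle-PDAC 1. The log2 fold change there was 1.29 ± 0.52 and did not pass, on 14 and 20 transcripts in BIBO3304-PDAC against 15 in vehicle-PDAC 1. In general capillary endothelial cells it stood at 99.3 and 84.6 CPM in BIBO3304-PDAC 1 and 2, against 128 and 148 CPM in vehicle-PDAC 1 and 2, and the groups did not overlap (log2 fold change -0.55 ± 0.22, adjusted p = 0.433). In alveolar type 2 cells, where Dpp4 was well counted, it stood at 167 and 146 CPM in BIBO3304-PDAC, against 194 and 161 CPM in vehicle-PDAC, and the groups overlapped (-0.19 ± 0.20, adjusted p = 0.862). Without vehicle-PDAC 2 Dpp4 gave -0.47 in general capillary endothelial cells (adjusted p = 0.529) and -0.33 in alveolar type 2 cells (0.609).

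Of the 16 adrenergic genes (receptors, transporter and enzymes of catecholamine turnover), 10 were tested in 50 tests. By edgeR 0 passed, 3 reached an unadjusted p under 0.05, all lower, while DESeq2 called 1 and gave no adjusted p for 21. Adra1a, an alpha-1 adrenergic receptor gene, stood in alveolar fibroblasts at 284 and 269 CPM in BIBO3304-PDAC 1 and 2, against 482 and 455 CPM in vehicle-PDAC 1 and 2. Both BIBO3304-PDAC samples were lower, without overlap, and the difference did not pass (-0.76 ± 0.21, adjusted p = 0.207). In mice without PDAC cells Adra1a ran the other way (0.66), with 597 to 723 CPM under BIBO3304 and 318 to 510.2 CPM under vehicle. The difference between the drug's effects with PDAC cells and without them passed (-1.42 ± 0.28, adjusted p = 0.0182). Without vehicle-PDAC 2 Adra1a gave -0.82 (adjusted p = 0.189), and the difference between effects passed (-1.48, 0.0191). Slc6a2, the norepinephrine transporter gene, was high in large-vessel endothelial cells, at 787 and 737 CPM in BIBO3304-PDAC 1 and 2, against 744 and 734 CPM in vehicle-PDAC 1 and 2. These 4 values lay close together and the groups differed by 0.05 ± 0.23 (adjusted p = 0.985). In adventitial fibroblasts Slc6a2 stood at 12.7 and 12.5 CPM in BIBO3304-PDAC, against 27.1 and 29 CPM in vehicle-PDAC, without overlap, and did not pass (-1.15 ± 0.42, adjusted p = 0.756, and -1.11, 0.525 without vehicle-PDAC 2). The receptor gene Adrb1, the monoamine oxidase genes Maoa and Maob and the synthesis enzyme gene Ddc, where their mean was at least 20 CPM, had log2 fold changes from -1.50 (Maoa in aerocyte capillary endothelial cells, adjusted p = 0.683) to 1.53 (Ddc in peribronchial fibroblasts, adjusted p = 0.941).

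Heat shock proteins are chaperones that fold new proteins and refold damaged ones, and their genes are switched on together by heat shock factors. The heat shock list held 14 genes, and 209 of its 218 tests of a gene in a type had a positive log2 fold change. The groups did not overlap, with BIBO3304-PDAC higher, in 77.1% of these tests, and with BIBO3304-PDAC lower in 0.917%. Over all genes and types the groups did not overlap in 17.2% of tests with BIBO3304-PDAC higher and in 18.5% with it lower. The promoters of 4 of these genes are shown because the results below turn on them. Dnaja1 (an Hsp40 partner of Hsp70) and Hsph1 (Hsp110, a nucleotide exchange factor of Hsp70) did not overlap between groups in 19 and 18 types. Hspe1 (the mitochondrial Hsp10 cap of Hsp60) and Hspa5 (the Hsp70 of the endoplasmic reticulum, which is not in the list) passed in 1 type each. Each sequence runs 5′ to 3′ on the gene's strand from 250 bases before to 50 bases after the start, from RefSeq on GRCm38.p6, and capitals mark matches to GAANNTTC or TTCNNGAA (heat shock element letters) or, in Hspa5, the endoplasmic reticulum stress element.
Dnaja1, chr4:40722218-40722517, plus strand: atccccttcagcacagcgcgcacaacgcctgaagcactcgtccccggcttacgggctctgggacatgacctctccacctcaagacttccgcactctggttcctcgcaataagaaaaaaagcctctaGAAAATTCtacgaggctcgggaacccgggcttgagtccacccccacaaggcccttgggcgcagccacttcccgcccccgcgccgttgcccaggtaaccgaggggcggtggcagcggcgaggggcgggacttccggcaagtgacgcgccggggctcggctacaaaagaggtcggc
Hsph1, chr5:149636266-149636565, minus strand: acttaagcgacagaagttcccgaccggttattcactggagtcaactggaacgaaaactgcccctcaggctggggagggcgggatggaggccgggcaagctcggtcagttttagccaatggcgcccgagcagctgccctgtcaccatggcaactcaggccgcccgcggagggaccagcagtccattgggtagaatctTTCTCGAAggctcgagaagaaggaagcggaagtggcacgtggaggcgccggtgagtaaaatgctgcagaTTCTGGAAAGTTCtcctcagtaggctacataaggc
Hspe1, chr1:55087898-55088197, plus strand: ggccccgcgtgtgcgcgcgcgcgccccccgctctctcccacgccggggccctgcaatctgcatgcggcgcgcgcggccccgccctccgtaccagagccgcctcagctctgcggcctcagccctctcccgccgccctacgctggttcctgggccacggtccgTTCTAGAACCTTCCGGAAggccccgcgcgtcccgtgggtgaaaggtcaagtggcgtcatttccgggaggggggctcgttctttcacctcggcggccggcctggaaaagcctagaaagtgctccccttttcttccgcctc
Hspa5, chr2:34771840-34772139, plus strand: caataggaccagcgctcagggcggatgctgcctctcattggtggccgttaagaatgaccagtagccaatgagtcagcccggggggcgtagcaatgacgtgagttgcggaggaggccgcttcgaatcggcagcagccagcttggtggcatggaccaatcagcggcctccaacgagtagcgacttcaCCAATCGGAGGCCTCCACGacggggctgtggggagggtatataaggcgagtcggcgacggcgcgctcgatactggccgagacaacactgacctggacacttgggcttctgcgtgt

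Both strands of each window were searched, and overlapping matches were counted apart. Dnaja1 had 3 windows and Hsph1 had 2, and for each gene the window shown was picked for holding the most matches. In the windows shown, GAANNTTC was found 1 time in Dnaja1, Hsph1 and Hspe1 each. TTCNNGAA was found 2 times in Hsph1 and Hspe1 each, and the longer motif 1 time in Hspa5. Promoters were found for 10 of the 14 list genes, and Hspa8, Hsp90aa1, Hsp90ab1 and Cryab are named only. Of the 10, 8 held GAANNTTC, against 9.04% of 27025 genes. TTCNNGAA was held by 3 of the 10, against 9.60% of genes. The longer motif was held by 0 of the 10 and by 0.137% of genes. A match describes letters and is not a measurement of binding.

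Hspa8 passed in more types than any other gene. Its log2 fold change was positive in 19 of 19 types, from 1.10 to 1.84 with a median of 1.58, and the unadjusted p was under 0.05 in 19. It passed in large-vessel endothelial, aerocyte capillary endothelial, B and lymphatic endothelial cells. In large-vessel endothelial cells it stood at 743 and 509 CPM in BIBO3304-PDAC 1 and 2, against 172 and 213 CPM in vehicle-PDAC 1 and 2. Both BIBO3304-PDAC samples were above both vehicle-PDAC samples (1.74 ± 0.29, edgeR adjusted p = 0.00376). In aerocyte capillary endothelial cells the values were 733 and 767 CPM in BIBO3304-PDAC, against 248 and 283 CPM in vehicle-PDAC (1.50 ± 0.29, adjusted p = 0.0239). In B cells they were 548 and 554 CPM in BIBO3304-PDAC, against 105 and 218 CPM in vehicle-PDAC (1.74 ± 0.30, adjusted p = 0.0251). In lymphatic endothelial cells they were 1391 and 953 CPM in BIBO3304-PDAC, against 308 and 365 CPM in vehicle-PDAC (1.84 ± 0.38, adjusted p = 0.0315), in a fit of 14 samples without 6-OHDA-PDAC 2, which held 17 of these cells. In each of these types the lower BIBO3304-PDAC sample exceeded the higher vehicle-PDAC sample. Without vehicle-PDAC 2 the log2 fold changes were 1.87 in large-vessel (adjusted p = 0.0441), 1.54 in aerocyte (0.105), 2.36 in B (0.00172) and 1.95 in lymphatic endothelial cells (0.086). The number of types with Hspa8 past the threshold was 5 without vehicle-PDAC 2, 0 without vehicle-PDAC 1, 0 without BIBO3304-PDAC 1 and 2 without BIBO3304-PDAC 2, and 10 by DESeq2. Hspa8 has processed pseudogenes, and the sources used here give no account of how reads were shared with them.

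**Figure D1:**
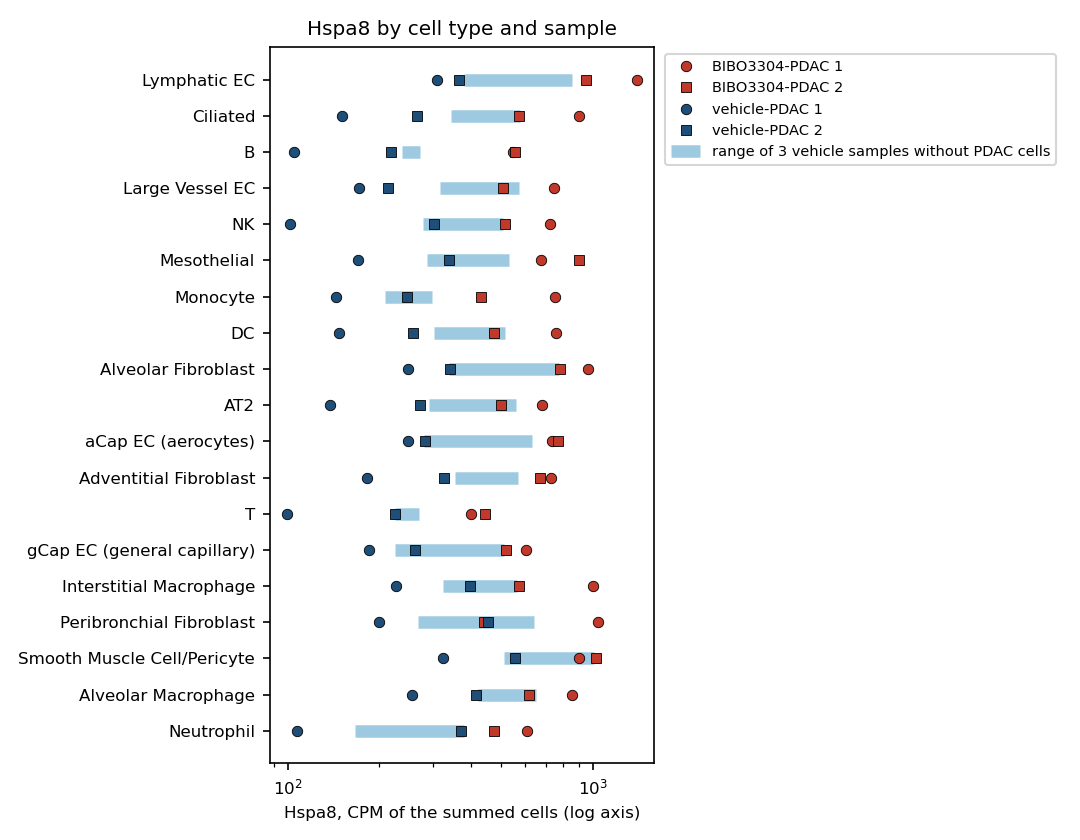
Hspa8 in CPM of the summed cells (log axis) for each of the 4 samples in 19 cell types, with bars for the range of the vehicle samples without PDAC cells. Both BIBO3304-PDAC points lie right of both vehicle-PDAC points in 18 of 19 types, and vehicle-PDAC 1 is the lowest of the 4 in 19.

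Peribronchial fibroblasts were the exception, with Hspa8 at 1039.9 and 439 CPM in BIBO3304-PDAC 1 and 2, against 199.6 and 455 CPM in vehicle-PDAC 1 and 2, where BIBO3304-PDAC 2 lay below vehicle-PDAC 2. Across types vehicle-PDAC 1 was the lowest of the 4 samples in 19 of 19. Both vehicle-PDAC samples lay below all 3 vehicle samples without PDAC cells in 9 of 19 types, and both BIBO3304-PDAC samples lay above all 3 BIBO3304 samples without PDAC cells in 12 of 19. Without PDAC cells the drug's log2 fold change for Hspa8 was positive in 12 of 19 types and ran from -0.96 to 0.48. The difference between the drug's effects passed in B cells (1.98 ± 0.39, adjusted p = 0.0199), where the samples without PDAC cells held 169 to 298 CPM under BIBO3304 and 237 to 272 CPM under vehicle.

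Of the 218 tests of the list, 99 were higher and 2 lower at an unadjusted p under 0.05. Both lower ones were Hspa4l, an Hsp110 family gene, in alveolar macrophages (-0.62) and neutrophils (-2.01). Dnaja1 was the only 1 of 1013 genes tested in all 19 types whose groups did not overlap, with BIBO3304-PDAC higher, in every type, and 0 genes did so with BIBO3304-PDAC lower. Its log2 fold changes ran from 0.55 to 1.58, and 0 of 19 passed by edgeR, with 14 at an unadjusted p under 0.05 and 3 called by DESeq2, which gave no adjusted p for 3. In dendritic cells Dnaja1 stood at 244 and 187 CPM in BIBO3304-PDAC 1 and 2, against 74.7 and 69.1 CPM in vehicle-PDAC 1 and 2, without overlap (1.58 ± 0.37, adjusted p = 0.0864). Of the 1013 genes, 6 were higher without overlap in 15 or more types, namely Dnaja1 (19), Hspa5 (18), Hspa8 (18), Hsph1 (18), Hsp90aa1 (16) and Hsp90ab1 (16), and 0 were lower in 15 or more. Hsp90aa1 and Hsp90ab1 encode the inducible and the constitutive cytosolic Hsp90. All 6 are chaperone genes and 5 belong to the list. The types share the same 4 samples, so these counts are not independent between types.

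Hspa1b, the inducible Hsp70 gene, had log2 fold changes of 1.55 to 5.01 in 17 types, each without overlap. In alveolar fibroblasts it stood at 242 and 281 CPM in BIBO3304-PDAC 1 and 2, against 14.4 and 14.2 CPM in vehicle-PDAC 1 and 2. Both BIBO3304-PDAC samples were far above both vehicle-PDAC samples, and the difference did not pass (4.18 ± 1.56, adjusted p = 0.384). Samples without PDAC cells held 69.9 to 333 CPM under BIBO3304 and 17.7 to 206 CPM under vehicle. Hspa1a and Hspa1b are near-identical copies, and their separate values are uncertain. Hsph1 was positive in 19 of 19 types with PDAC cells (1.15 to 4.21) and also in 19 of 19 without them. Hspe1 rose in interstitial macrophages, at 58 and 47.8 CPM in BIBO3304-PDAC 1 and 2, against 9.84 and 14.6 CPM in vehicle-PDAC 1 and 2. Both BIBO3304-PDAC samples were above both vehicle-PDAC samples (2.12 ± 0.40, adjusted p = 0.013), on 35 and 50 transcripts in BIBO3304-PDAC against 10 and 10 in vehicle-PDAC. The Hspe1 call was lost in each fit that left out a sample (0.0564 to 0.42, with 2.39, adjusted p = 0.0564 without vehicle-PDAC 2).

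Summed over cells other than cancer cells, the 14 genes made up 0.236% and 0.222% of transcripts in BIBO3304-PDAC 1 and 2, against 0.127% in both vehicle-PDAC samples. The 9 samples without PDAC cells ran from 0.132% to 0.396% with a median of 0.224%. The BIBO3304-PDAC samples thus lay near the median of the unseeded samples, and the vehicle-PDAC samples lay below the lowest of them. Both vehicle-PDAC samples also lay below every 6-OHDA-PDAC sample of the fit in 19 of 19 types for Dnaja1, 18 of 19 for Hsph1 and 17 of 19 for Hspa8. For these genes the gap was thus not particular to BIBO3304. Hsp90ab1 showed that position in 8 of 19 types and Cryab in 1 of 6. The median of the list's type medians was 1.02 on the log2 scale with PDAC cells (0.47 to 1.52, positive in 19 of 19 types, against at most 0.04 in size over all genes of a type), 1.15 without vehicle-PDAC 2 and 0.34 for the drug without PDAC cells. Cells had been freed by enzymes at 37 °C for 30 minutes, a step known to induce chaperone and immediate early genes. The list of 18 immediate early genes had type medians of -0.43 to 0.68, positive in 13 of 19 types, with 0 of 306 tests called by edgeR and 32 at an unadjusted p under 0.05. Whether handling differed between samples was not tested.

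**Figure D2:**
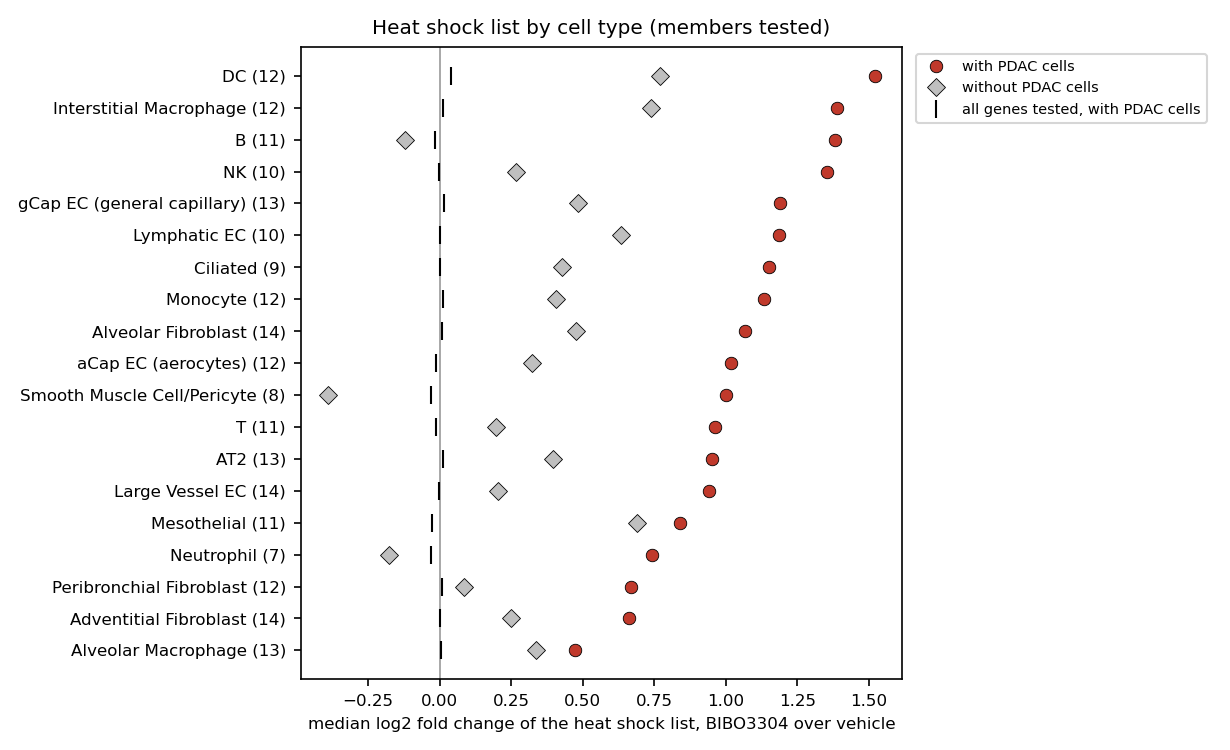
Median log2 fold change of the heat shock list, BIBO3304 over vehicle, for 19 cell types (members tested in brackets), with PDAC cells and without PDAC cells. Upright ticks mark the median of all genes tested with PDAC cells. The medians with PDAC cells run from 0.47 to 1.52 and lie right of 0 in 19 of 19 types.

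In aerocyte capillary endothelial cells, the thin gas-exchange endothelium, 3 further genes passed. Vcl, which encodes the adhesion protein vinculin, fell to 699 and 971 CPM in BIBO3304-PDAC 1 and 2, against 2475 and 1522 CPM in vehicle-PDAC 1 and 2 (-1.31 ± 0.24, adjusted p = 0.0115). Both BIBO3304-PDAC samples also lay below all 3 vehicle samples without PDAC cells, at 1375 to 1828 CPM under vehicle. The call held without vehicle-PDAC 2 (-1.66, adjusted p = 0.000238) and was lost without vehicle-PDAC 1 (adjusted p = 0.343) or BIBO3304-PDAC 1 (0.288). Adam12, a metalloprotease gene, rose, at 175 and 157 CPM in BIBO3304-PDAC 1 and 2, against 37.8 and 41.1 CPM in vehicle-PDAC 1 and 2 (2.10 ± 0.43, adjusted p = 0.0278). Its BIBO3304-PDAC values were about those of the samples without PDAC cells (130.1 to 235 CPM under BIBO3304 and 107 to 123 CPM under vehicle), and its vehicle-PDAC values were lower. Camk1d, a calmodulin-dependent kinase gene, rose, at 2722 and 2835 CPM in BIBO3304-PDAC 1 and 2, against 1231 and 1337 CPM in vehicle-PDAC 1 and 2 (1.11 ± 0.23, adjusted p = 0.0351). The effect without PDAC cells was -0.34, and the difference between effects passed (1.45 ± 0.30, adjusted p = 0.0406). Adam12 and Camk1d were lost in each fit that left out a sample (adjusted p = 0.0903 to 0.343 and 0.147 to 0.343, with 0.105 and 0.147 without vehicle-PDAC 2).

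Interstitial macrophages, the macrophages of the lung's connective tissue, held most calls. Among the falls were genes of semaphorin and cell contact proteins (Plxna4, Ctnnd2), the glycerol channel Aqp9, the growth factor receptor inhibitor Errfi1, the transcription factors Foxp1, Zbtb20 and Atf6, the inflammatory caspase Casp4 and the lipid transfer protein Pltp. Ctnnd2 fell to 29.8 and 12.4 CPM in BIBO3304-PDAC 1 and 2, against 109 and 80.4 CPM in vehicle-PDAC 1 and 2 (-2.27 ± 0.41, adjusted p = 0.0107). Plxna4, a semaphorin co-receptor gene, fell to 34.8 and 22 CPM in BIBO3304-PDAC, against 109 and 136 CPM in vehicle-PDAC (-2.15 ± 0.41, adjusted p = 0.0152). Samples without PDAC cells held 196 to 369.6 CPM under BIBO3304 and 121 to 214 CPM under vehicle for Plxna4, so both BIBO3304-PDAC samples lay below those too. Aqp9 fell to 3.31 and 5.73 CPM in BIBO3304-PDAC, against 24.6 and 46.8 CPM in vehicle-PDAC (-2.81 ± 0.55, adjusted p = 0.0152), on 2 and 6 transcripts in BIBO3304-PDAC against 25 and 32 in vehicle-PDAC. Errfi1 fell to 31.5 and 24.8 CPM in BIBO3304-PDAC, against 89.6 and 73.1 CPM in vehicle-PDAC (-1.56 ± 0.32, adjusted p = 0.0208). Of the glucocorticoid response list it was the single called member. Mtmr10, of the myotubularin family, fell to 11.6 and 15.3 CPM in BIBO3304-PDAC, against 51.2 and 64.3 CPM in vehicle-PDAC (-2.05 ± 0.48, adjusted p = 0.0445). Foxp1 fell to 475 and 399 CPM in BIBO3304-PDAC, against 858 and 1068 CPM in vehicle-PDAC (-1.14 ± 0.24), and Casp4 to 92.8 and 86 CPM in BIBO3304-PDAC, against 158 and 265 CPM in vehicle-PDAC (-1.24 ± 0.26). Without vehicle-PDAC 2 the calls of Plxna4 (-1.99, edgeR adjusted p = 0.0935), Aqp9 (-2.32, 0.138), Errfi1 (-1.69, 0.0564), Mtmr10 (-1.88, 0.15), Foxp1 (-0.98, 0.152) and Casp4 (-0.83, 0.271) were lost. The groups did not overlap for any of these genes. For each gene given here in CPM, the 6-OHDA-PDAC samples also lay below both vehicle-PDAC samples. They held 10.2 to 12.6 CPM for Ctnnd2, 34.3 to 44.3 for Plxna4, 28.2 to 34.1 for Errfi1 and 365 to 393 for Foxp1. These falls were thus not particular to BIBO3304.

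The 3 rises were Hspe1, given above, Mmp14 and AA467197. Mmp14, a membrane-bound matrix protease gene, stood at 123 and 115 CPM in BIBO3304-PDAC 1 and 2, against 56.1 and 17.5 CPM in vehicle-PDAC 1 and 2 (1.62 ± 0.35, adjusted p = 0.0294). The vehicle-PDAC samples differed widely from each other, and without vehicle-PDAC 2 it did not pass (1.07, adjusted p = 0.258). AA467197 stood at 49.7 and 74.5 CPM in BIBO3304-PDAC 1 and 2, against 13.8 and 5.85 CPM in vehicle-PDAC 1 and 2 (2.59 ± 0.43, adjusted p = 0.00523). Samples without PDAC cells held 7.92 to 14 CPM under BIBO3304 and 11.7 to 21.2 CPM under vehicle, below both BIBO3304-PDAC samples. For the 3 rises the 6-OHDA-PDAC samples also lay above both vehicle-PDAC samples, so these were not particular to BIBO3304. They held 39.8 to 42.9 CPM for Hspe1, 106 to 121 for Mmp14 and 30.6 to 38.3 for AA467197. The difference between the drug's effects with PDAC cells and without them passed for AA467197 (3.04 ± 0.69, adjusted p = 0.0288), Plxna4 (-2.84 ± 0.51, 0.00721), Errfi1 (-2.12 ± 0.41, 0.00978) and Hspe1 (2.53 ± 0.57, 0.0296). Without vehicle-PDAC 2 that difference did not pass for AA467197 (2.63, adjusted p = 0.0502) and passed for Plxna4 (-2.69, 0.0144), Errfi1 (-2.27, 0.0109) and Hspe1 (2.79, 0.0272).

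The 36 calls in interstitial macrophages rested on single samples, and all 36 were lost without BIBO3304-PDAC 2. The count was 1 without vehicle-PDAC 2, where Ctnnd2 remained (-2.47, adjusted p = 0.0482), 105 without vehicle-PDAC 1, 7 without BIBO3304-PDAC 1 and 0 without BIBO3304-PDAC 2, where edgeR gave 376 genes at an unadjusted p under 0.05. DESeq2, run on all 4 samples, called 76, of which 28 were shared. The share of interstitial macrophages among all cells, which did not pass, was 3.92% and 9.58% in BIBO3304-PDAC 1 and 2, against 3.86% and 3.18% in vehicle-PDAC 1 and 2. The 10 markers of the type were summed to 1731 and 1422 CPM in BIBO3304-PDAC 1 and 2, against 2222 and 4071 CPM in vehicle-PDAC 1 and 2, and 0 of 10 had a positive log2 fold change. Markers of alveolar macrophages within these cells summed to 309.8 and 555 CPM in BIBO3304-PDAC 1 and 2, against 165 and 1375 CPM in vehicle-PDAC 1 and 2. Their part in the calls was not tested, and a change within the cells and a change in which macrophages the type holds cannot be told apart.

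**Figure D3:**
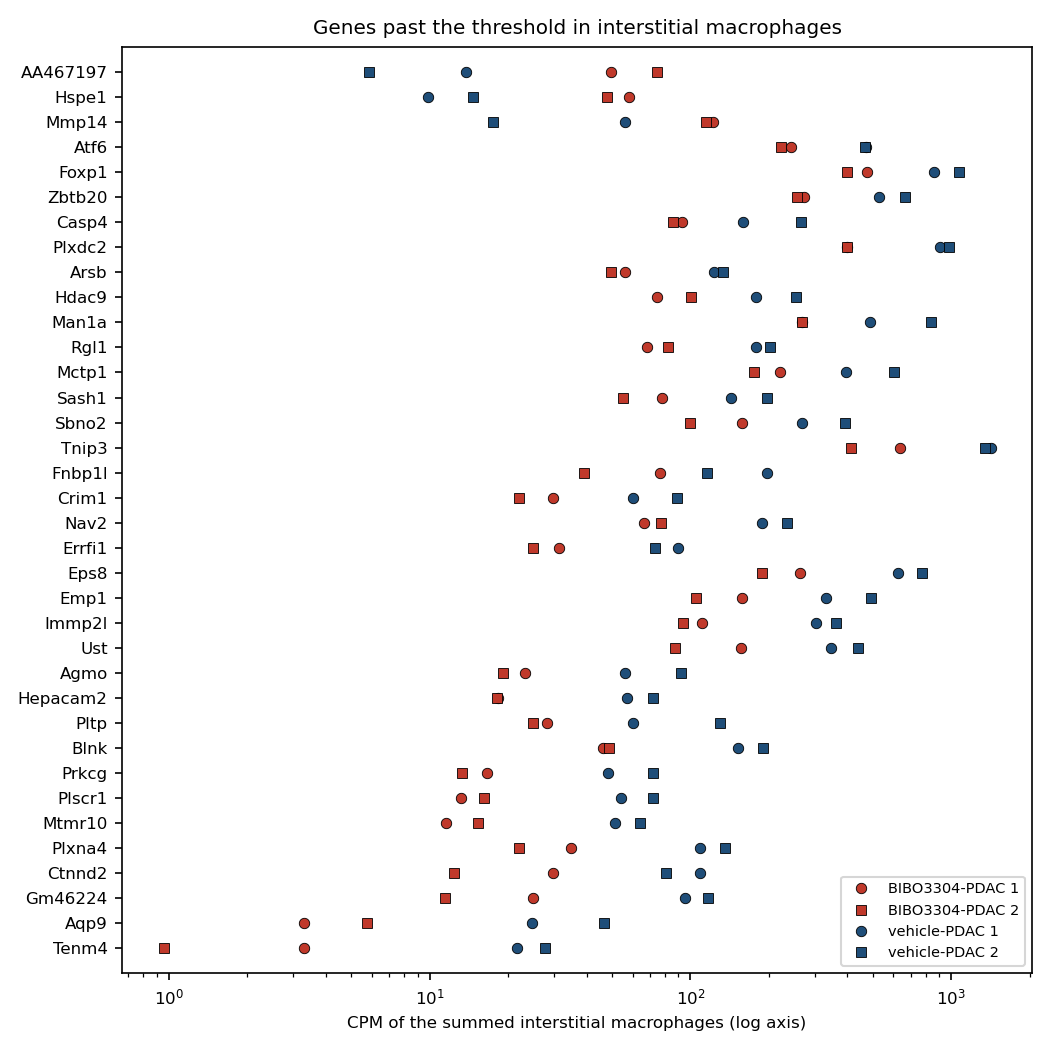
CPM (log axis) of the genes past the threshold in interstitial macrophages for each of the 4 samples. The 2 BIBO3304-PDAC points lie left of the 2 vehicle-PDAC points for the 33 lower genes and right of them for the 3 higher ones.

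Gene lists were read in the same cells by their counts. All 13 tested genes of the interferon gamma response had positive log2 fold changes (median 1.0, against 0.01 over all genes tested), and 0 passed. For 11 of the 13 BIBO3304-PDAC was higher without overlap, as for 18.4% of the 6443 genes tested in these cells. Gbp5, an interferon-induced GTPase gene, stood at 49.7 and 50.6 CPM in BIBO3304-PDAC 1 and 2, against 10.8 and 10.2 CPM in vehicle-PDAC 1 and 2 (2.23 ± 0.55, adjusted p = 0.0638). Cxcl9, a chemokine gene that draws T cells, stood at 87.8 and 74.5 CPM in BIBO3304-PDAC, against 14.8 and 1.46 CPM in vehicle-PDAC (3.13 ± 0.81, adjusted p = 0.132). For both genes each BIBO3304-PDAC sample lay above both vehicle-PDAC samples. Irf1, of the same list, showed no such gap, at 94.4 and 100.3 CPM in BIBO3304-PDAC, against 98.4 and 84.8 CPM in vehicle-PDAC (0.09 ± 0.29, adjusted p = 0.98). In the list of NF-kB inflammatory genes 2 of 20 were positive (median -0.51) and 11 were lower without overlap, as were 19.6% of the genes tested in these cells. Tnfaip3, which encodes the feedback inhibitor A20, stood at 225 and 199.6 CPM in BIBO3304-PDAC, against 385 and 401 CPM in vehicle-PDAC (-0.89 ± 0.25, adjusted p = 0.132). Over all types, 0 of 181 tests of interferon gamma genes and 0 of 285 tests of NF-kB genes passed by edgeR, with 33 and 48 at an unadjusted p under 0.05, and DESeq2 called 0 and 6, with no adjusted p for 71 and 42. Without vehicle-PDAC 2 Gbp5 gave 2.19 (adjusted p = 0.211), Cxcl9 2.43 (0.334) and Tnfaip3 -0.86 (0.281).

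Of the 14 genes of alternatively activated macrophages, 4 had positive log2 fold changes in interstitial macrophages (median -0.38), and 0 passed. Without overlap 3 of the 14 were higher and 6 lower, against 18.4% and 19.6% of the 6443 genes tested in these cells. Mrc1 and Retnla, the 2 with the smallest adjusted p, were chosen after their values were seen. Mrc1, the mannose receptor gene, stood at 790.2 and 602 CPM in BIBO3304-PDAC 1 and 2, against 1186 and 2047 CPM in vehicle-PDAC 1 and 2 (-1.22 ± 0.31, adjusted p = 0.0878). Retnla, a secreted resistin-like protein gene, stood at 16.6 and 54.4 CPM in BIBO3304-PDAC, against 139 and 592 CPM in vehicle-PDAC (-3.25 ± 0.69, adjusted p = 0.0694). For Retnla the vehicle-PDAC samples differed more from each other than BIBO3304-PDAC 2 did from vehicle-PDAC 1. For Mrc1 the samples without PDAC cells held 2751 to 4891 CPM under BIBO3304 and 1817 to 2194 CPM under vehicle, and the difference between the drug's effects passed (-2.03 ± 0.40, adjusted p = 0.0136). It passed too for Apoe, an apolipoprotein gene (-2.12 ± 0.42, adjusted p = 0.013) and for Cfb, a protease gene of the alternative complement pathway (4.24 ± 0.89, adjusted p = 0.0183). Cfb stood at 38.1 and 32.5 CPM in BIBO3304-PDAC, against 9.84 and 7.31 CPM in vehicle-PDAC, without overlap, and did not pass for the drug with PDAC cells itself (1.98 ± 0.51, adjusted p = 0.0878). Without vehicle-PDAC 2 Mrc1 gave -0.78 (adjusted p = 0.462) and Retnla -1.87 (0.141). The difference between effects passed there for Mrc1 (-1.59, adjusted p = 0.0364), Apoe (-1.43, 0.0442) and Cfb (4.06, 0.0272).

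Neutrophils, with 33 and 67 cells in BIBO3304-PDAC 1 and 2 against 62 and 123 in vehicle-PDAC 1 and 2, had 3 falls. Sgms2, a sphingomyelin synthase gene, fell to 286 and 613 CPM in BIBO3304-PDAC 1 and 2, against 1612 and 1420.1 CPM in vehicle-PDAC 1 and 2 (-1.71 ± 0.32, adjusted p = 0.011). Sfxn5, of the mitochondrial sideroflexin family, fell to 89.4 and 75 CPM in BIBO3304-PDAC, against 439.5 and 376 CPM in vehicle-PDAC (-2.31 ± 0.42, adjusted p = 0.011), on 5 and 6 transcripts in BIBO3304-PDAC against 45 and 57 in vehicle-PDAC. Antxr2, a receptor of anthrax toxin and matrix proteins, fell to 1323 and 1851 CPM in BIBO3304-PDAC, against 5792 and 3045 CPM in vehicle-PDAC (-1.47 ± 0.31, adjusted p = 0.043). The groups did not overlap for the 3 genes, and the differences between the drug's effects passed as well (-2.33 ± 0.39, -2.84 ± 0.50 and -1.78 ± 0.39, adjusted p = 0.00419, 0.00444 and 0.0182). All 3 stayed past the threshold without vehicle-PDAC 2 (edgeR adjusted p = 0.0114, 0.0114 and 0.00165) and were lost without vehicle-PDAC 1 (0.0786, 0.0786 and 0.545). Over all fits without 1 sample the adjusted p ran to 0.298, 0.195 and 0.545. The neutrophil markers summed to 5524 and 5066 CPM in BIBO3304-PDAC 1 and 2, against 11506 and 7814 CPM in vehicle-PDAC 1 and 2, and 0 of 7 tested were positive. Their part in these calls was not tested.

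In monocytes 1 gene passed. Myo1e, a class I myosin gene, rose, at 82.7 and 94 CPM in BIBO3304-PDAC 1 and 2, against 6.65 and 27.1 CPM in vehicle-PDAC 1 and 2 (2.65 ± 0.44, adjusted p = 0.0128). The effect without PDAC cells was -1.29, with 11.8 to 19.2 CPM under BIBO3304 and 19 to 42.8 CPM under vehicle, and the difference between effects passed (3.94 ± 0.62, adjusted p = 0.00553). Without vehicle-PDAC 2 the call held (3.68, adjusted p = 0.000485), and without any other single sample it was lost (highest adjusted p = 0.432, without vehicle-PDAC 1).

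In peribronchial fibroblasts, the stromal cells around airways, 3 genes passed on few transcripts. Pdlim1, which encodes a protein of actin stress fibres, rose, at 302 and 253 CPM in BIBO3304-PDAC 1 and 2, against 35.8 and 35.7 CPM in vehicle-PDAC 1 and 2 (2.94 ± 0.54, adjusted p = 0.0065), on 34 and 15 transcripts in BIBO3304-PDAC against 7 and 4 in vehicle-PDAC. Hspa5 rose, at 1199.9 and 1417 CPM in BIBO3304-PDAC, against 481 and 446 CPM in vehicle-PDAC (1.48 ± 0.32, adjusted p = 0.0488). Samples without PDAC cells held 930 to 1609 CPM under BIBO3304 and 497 to 836 CPM under vehicle (0.98, edgeR adjusted p = 0.0837). For Hspa5 the difference between effects did not pass (0.50 ± 0.41, edgeR adjusted p = 0.838). Nr3c2, the mineralocorticoid receptor gene, fell to 44.4 and 50.6 CPM in BIBO3304-PDAC, against 348 and 214 CPM in vehicle-PDAC (-2.60 ± 0.57, adjusted p = 0.0488), on 5 and 3 transcripts in BIBO3304-PDAC against 68 and 24 in vehicle-PDAC. The groups did not overlap for the 3 genes. Without vehicle-PDAC 2 the adjusted p was 0.0502 for Pdlim1, 0.27 for Hspa5 and 0.0451 for Nr3c2, and over all fits without 1 sample it ran to 0.208, 0.325 and 0.582. The remaining call was 1200007C13Rik in alveolar macrophages, at 19.6 and 19.9 CPM in BIBO3304-PDAC, against 6.94 and 5.33 CPM in vehicle-PDAC (1.68 ± 0.24, adjusted p = 0.0122), which held without vehicle-PDAC 2 (1.49, adjusted p = 0.022) and was lost without BIBO3304-PDAC 1 (0.293) or BIBO3304-PDAC 2 (0.104).

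The clock is a loop in which ARNTL (BMAL1) with CLOCK or NPAS2 activates the Per and Cry repressors, Nr1d1 and output genes such as Tef. Under BIBO3304 with PDAC cells Arntl had a negative log2 fold change in 14 of 16 types, whereas without PDAC cells it was positive in 15 of 16. In adventitial fibroblasts it stood at 13.9 and 23.2 CPM in BIBO3304-PDAC 1 and 2, against 104 and 56.8 CPM in vehicle-PDAC 1 and 2. Both BIBO3304-PDAC samples were at under 25 CPM and did not overlap with vehicle-PDAC, but the difference did not pass (-2.16 ± 0.39, adjusted p = 0.086). Without vehicle-PDAC 2 it passed (-2.53, adjusted p = 0.0022). Samples without PDAC cells held 85.2 to 124 CPM under BIBO3304 and 28.8 to 51 CPM under vehicle, and the difference between the drug's effects passed (-3.42 ± 0.47, adjusted p = 0.00141). In alveolar type 2 cells Arntl stood at 21.6 and 38.8 CPM in BIBO3304-PDAC, against 91.5 and 32.5 CPM in vehicle-PDAC, where vehicle-PDAC 2 lay between the BIBO3304-PDAC samples, and the difference between effects also passed (-2.53 ± 0.51, adjusted p = 0.032). Npas2 was negative in 9 of 9 types with PDAC cells and positive in 9 of 9 without. Its groups did not overlap in alveolar fibroblasts, adventitial fibroblasts and large-vessel endothelial cells. Vehicle-PDAC 2 lay between the BIBO3304-PDAC samples in alveolar type 2, ciliated, mesothelial and smooth muscle cells and peribronchial fibroblasts. In alveolar fibroblasts Npas2 stood at 14.6 and 35.7 CPM in BIBO3304-PDAC, against 96.2 and 43.7 CPM in vehicle-PDAC (-1.71 ± 0.59, adjusted p = 0.336). The difference between effects there was -3.99 ± 0.75 (adjusted p = 0.0383). Clock itself passed that test in alveolar fibroblasts (-1.18 ± 0.25, adjusted p = 0.0287). Without vehicle-PDAC 2 the difference between effects passed for Arntl in adventitial fibroblasts (-3.79, adjusted p = 1.33e-05) and alveolar type 2 cells (-3.02, 3.57e-05), and in alveolar fibroblasts for Npas2 (-4.45, 0.0165) and Clock (-1.30, 0.0211).

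The clock lists moved with single samples. The median of the type medians of the repressor and output genes was 0.31 (13 of 18 types positive), against 0.0092 without BIBO3304-PDAC 1 (10 of 19), 0.46 without BIBO3304-PDAC 2, 0.12 without vehicle-PDAC 1 and 0.43 without vehicle-PDAC 2. That of the activators was -0.24 (5 of 18 types positive), against -0.48 without BIBO3304-PDAC 1, -0.11 without BIBO3304-PDAC 2, -0.046 without vehicle-PDAC 1 (9 of 18) and -0.41 without vehicle-PDAC 2. Tef was positive in 10 of 10 types with PDAC cells and in 0 of 10 without, and in alveolar fibroblasts it stood at 38.5 and 24.8 CPM in BIBO3304-PDAC 1 and 2, against 17.2 and 20.4 CPM in vehicle-PDAC 1 and 2 (0.85 ± 0.28, adjusted p = 0.266), with a difference between effects that passed (1.55 ± 0.34, adjusted p = 0.0314). Per2 was positive in 8 of 9 types with PDAC cells and in 8 of 9 without, and Nr1d1 in 7 of 9 with and in 0 of 9 without. Of the clock activators 0 of 75 tests passed by edgeR, with 18 lower and 1 higher at an unadjusted p under 0.05, and 1 by DESeq2. Of the repressors and outputs 0 of 109 passed, with 17 higher and 4 lower, and 1 by DESeq2. The sources used here give no hour of collection, and an effect of hour and an effect of treatment cannot be told apart.

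Glucocorticoid-induced genes were read in the same way. Fkbp5, a co-chaperone gene of the glucocorticoid receptor, was positive in 18 of 18 types with PDAC cells and in 1 of 18 without PDAC cells. With PDAC cells it was higher without overlap in 16 of 18 types, against 17.2% of all tests over all types, and the types share the same 4 samples. In neutrophils Fkbp5 stood at 232 and 163 CPM in BIBO3304-PDAC 1 and 2, against 68.4 and 99.1 CPM in vehicle-PDAC 1 and 2, with samples without PDAC cells at 38.8 to 66.3 CPM under BIBO3304 and 135 to 343 CPM under vehicle. With PDAC cells the difference did not pass (1.17 ± 0.58, adjusted p = 0.458), while the difference between effects did (3.08 ± 0.73, adjusted p = 0.0287). Mt2, a metallothionein gene, stood in alveolar fibroblasts at 401 and 412 CPM in BIBO3304-PDAC, against 165 and 145 CPM in vehicle-PDAC (1.39 ± 0.24, adjusted p = 0.0642). Without PDAC cells it was lower under the drug (66.3 to 126 CPM under BIBO3304 and 221 to 300.3 CPM under vehicle), and the difference between effects passed (2.85 ± 0.31, adjusted p = 0.000156). Its neighbour in function Mt1 did so too (1.71 ± 0.27, adjusted p = 0.00567). Of 196 tests of the glucocorticoid list 0 passed as higher and 1 as lower (Errfi1), with 29 higher and 5 lower at an unadjusted p under 0.05. For the difference between effects 8 passed as higher and 1 as lower, where 0.259% and 0.202% of all tests passed. Without vehicle-PDAC 2 that difference passed for Fkbp5 in neutrophils (3.36, adjusted p = 0.0221), and for Mt2 (2.73, 0.00241) and Mt1 (1.52, 0.0162) in alveolar fibroblasts.

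**Figure D4:**
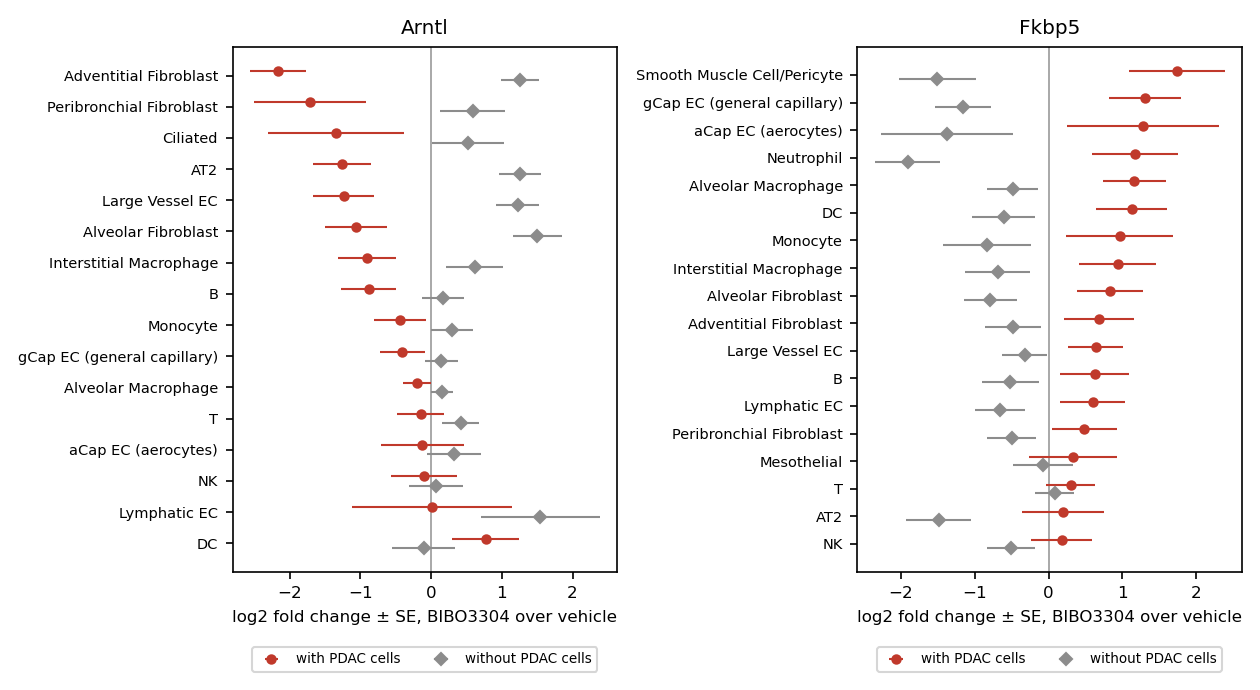
Log2 fold change ± SE, BIBO3304 over vehicle, of Arntl and Fkbp5 by cell type, with PDAC cells and without. With PDAC cells Arntl lies left of 0 in 14 of 16 types and Fkbp5 right of 0 in 18 of 18, and without PDAC cells Arntl lies right of 0 in 15 of 16 and Fkbp5 in 1 of 18.

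Over all genes, the difference between the drug's effects with PDAC cells and without them passed in 523 tests in 11 types, 294 higher (0.259% of 113537) and 229 lower (0.202%), against 51 for the drug with PDAC cells and 354 for the drug without. Of the ribosomal protein genes 42 tests passed there, all higher, with medians of type medians of 0.59 with PDAC cells and -0.76 without. The count was 4105 without vehicle-PDAC 2, 172 without vehicle-PDAC 1, 765 without BIBO3304-PDAC 1 and 40 without BIBO3304-PDAC 2. In B cells Ccr2 and Csf1r, genes of monocytes and macrophages, passed as higher (5.49 ± 0.92 and 3.84 ± 0.94, adjusted p = 0.0107 and 0.0397). The monocyte markers in B cells summed to 924 and 1395 CPM in BIBO3304-PDAC 1 and 2, against 467 and 849.7 CPM in vehicle-PDAC 1 and 2. Their part in these results was not tested.

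In the other 10 types 0 genes passed by edgeR, with 4777 of 62003 tests at an unadjusted p under 0.05, and DESeq2 called 224 and gave no adjusted p for 22683. The smallest p per type fell on genes that did not pass. Siglech, a receptor gene of plasmacytoid dendritic cells, stood in dendritic cells at 566 and 574 CPM in BIBO3304-PDAC 1 and 2, against 228 and 250.2 CPM in vehicle-PDAC 1 and 2 (1.26 ± 0.25, adjusted p = 0.0517). Mcc stood in general capillary endothelial cells at 406 and 347 CPM in BIBO3304-PDAC, against 656 and 819.6 CPM in vehicle-PDAC (-0.96 ± 0.19, adjusted p = 0.0724). Neither gene overlapped between the groups. Fosb, an AP-1 gene, stood in alveolar type 2 cells at 143 and 124 CPM in BIBO3304-PDAC, against 340.0 and 319.9 CPM in vehicle-PDAC (-1.30 ± 0.25, adjusted p = 0.0899). Gm6225, a predicted gene, stood in alveolar fibroblasts at 16.6 and 11.9 CPM in BIBO3304-PDAC, against 40.9 and 35.8 CPM in vehicle-PDAC (-1.35 ± 0.24, adjusted p = 0.0642). Ppfibp2 in mesothelial cells (-1.82 ± 0.42, adjusted p = 0.168, in a fit without 6-OHDA-PDAC 2 and its 17 cells), Rpl39 in ciliated cells (1.91 ± 0.48, 0.73) and Prdm6 in smooth muscle cells and pericytes (-1.22 ± 0.37, 0.988) were the first in their types. In natural killer and T cells it was Hspa8, at 1.72 ± 0.36 (0.207) and 1.43 ± 0.32 (0.997).

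Leaving out vehicle-PDAC 2, the sample without cancer cells, moved the calls to other types. There were 101 higher (0.0816% of 123822 tests) and 189 lower (0.153%), with the vehicle arm at 1 sample that is assumed to vary like the others. Alveolar macrophages held 137 of the 290, neutrophils 40, alveolar fibroblasts 34, B cells 30 and dendritic cells 23. The genes named in this paragraph were chosen after their values were seen. In alveolar macrophages genes of MHC class II, which presents peptides to CD4 T cells, passed as higher. Cd74, its invariant chain, stood at 197 and 249.7 CPM in BIBO3304-PDAC 1 and 2, against 91.1 and 200.4 CPM in vehicle-PDAC 1 and 2 (1.28 without vehicle-PDAC 2, adjusted p = 0.0346). H2-Aa stood at 30.5 and 50.7 CPM in BIBO3304-PDAC, against 10.6 and 33.6 CPM in vehicle-PDAC (1.91, 0.0346). Vehicle-PDAC 2 lay nearer to the BIBO3304-PDAC samples than to vehicle-PDAC 1 for both, and with it in the fit neither passed. Ext1, a heparan sulfate synthesis gene, fell in the same cells, at 404 and 412 CPM in BIBO3304-PDAC, against 906 and 683 CPM in vehicle-PDAC (-1.17, adjusted p = 0.0132). In neutrophils Entpd1, which encodes the ATP-cleaving enzyme CD39, fell, at 1519.7 and 1664 CPM in BIBO3304-PDAC, against 4424 and 2424 CPM in vehicle-PDAC (-1.50, 0.0114). Hsp90ab1 rose in natural killer cells (1.75, 0.00104) and B cells (1.56, 0.0427), and Hspa8 in natural killer, T, B, large-vessel endothelial cells and neutrophils.

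Cancer cells could be compared only between BIBO3304-PDAC 1 and 2 (33 and 73 cells) and vehicle-PDAC 1 (56 cells), in a fit with the 2 samples of 6-OHDA and PDAC cells. The vehicle arm is 1 sample and was assumed to vary like the others, so its deviations cannot be told apart from a group difference. Onecut2, a transcription factor gene of these cells, was found in 22 of 33 and 39 of 73 cells in BIBO3304-PDAC 1 and 2, against 41 of 56 in vehicle-PDAC 1. Of 11709 genes, 546 were called higher (4.66%) and 314 lower (2.68%), with 2408 at an unadjusted p under 0.05. The number called was 1026 without BIBO3304-PDAC 1 and 426 without BIBO3304-PDAC 2. Of the 14 heat shock genes 5 passed as higher, Hspa1a, Hspa1b, Hspa8, Dnaja1 and Dnajb1, and 9 did not pass, 3 of which had negative log2 fold changes (median of the 14 genes 0.36, against 0.03 over all genes). Hspa1b stood at 66.6 and 41.6 CPM in BIBO3304-PDAC 1 and 2, against 1.46 CPM in vehicle-PDAC 1 (5.10 ± 0.58, adjusted p = 1.63e-07). It rested on 51 and 47 transcripts in BIBO3304-PDAC against 3 in vehicle-PDAC 1, a ratio of 32.5 with a 95% counting interval of 10.8 to 160.3. Hspa8 stood at 1732 and 1091 CPM in BIBO3304-PDAC 1 and 2, against 655 CPM in vehicle-PDAC 1 (1.11 ± 0.29, adjusted p = 0.0122), and Dnaja1 at 174 and 165 CPM in BIBO3304-PDAC 1 and 2, against 88.3 CPM in vehicle-PDAC 1 (0.94 ± 0.26, adjusted p = 0.0147). Hsp90ab1, by contrast, stood at 2087 and 1978 CPM in BIBO3304-PDAC 1 and 2, against 1982 CPM in vehicle-PDAC 1 (0.04 ± 0.29, adjusted p = 0.965).

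Among the 5 smallest p in cancer cells, after Hspa1b, were Kcnip4, which encodes a potassium channel partner, at 571 and 784 CPM in BIBO3304-PDAC 1 and 2, against 144 CPM in vehicle-PDAC 1 (2.24 ± 0.29, adjusted p = 5.18e-06), and Sorbs2, which encodes a cytoskeletal adaptor, at 52.3 and 38.9 CPM in BIBO3304-PDAC 1 and 2, against 173 CPM in vehicle-PDAC 1 (-1.95 ± 0.27, adjusted p = 5.18e-06). Cebpb, a transcription factor gene, stood at 131 and 182 CPM in BIBO3304-PDAC 1 and 2, against 38.1 CPM in vehicle-PDAC 1 (2.05 ± 0.29, adjusted p = 7.24e-06). Krt8, an epithelial keratin gene, fell to 64 and 56.6 CPM in BIBO3304-PDAC 1 and 2, against 133 CPM in vehicle-PDAC 1 (-1.14 ± 0.26, adjusted p = 0.00289), while Krt18, its partner keratin, did not pass at 399.9 and 378 CPM in BIBO3304-PDAC 1 and 2, against 442 CPM in vehicle-PDAC 1 (-0.18 ± 0.24, adjusted p = 0.731). Arntl and Clock fell as well (-1.10 ± 0.36, adjusted p = 0.0483, and -0.83 ± 0.25, adjusted p = 0.0285). Mki67, a gene of dividing cells, stood at 324 and 232 CPM in BIBO3304-PDAC 1 and 2, against 415 CPM in vehicle-PDAC 1 (-0.59 ± 0.25, adjusted p = 0.16), and 0 of the 21 proliferation genes listed passed by edgeR, with 3 at an unadjusted p under 0.05. DESeq2 was not run on cancer cells.

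The shares of cell types among all cells did not pass in any of 22 types by edgeR, with 1 type at an unadjusted p under 0.05. Interstitial macrophages made up 3.92% and 9.58% of BIBO3304-PDAC 1 and 2, against 3.86% and 3.18% of vehicle-PDAC 1 and 2 (log2 fold change 0.94 ± 0.40, adjusted p = 0.518). BIBO3304-PDAC 2 alone was high, and BIBO3304-PDAC 1 lay next to vehicle-PDAC 1. The two-sided exact permutation test gave 0.33, the smallest value that 2 against 2 samples allow. Without BIBO3304-PDAC 1 the interstitial macrophage share passed (1.45, adjusted p = 0.0218). Adventitial fibroblasts made up 4.35% and 5.21% in BIBO3304-PDAC 1 and 2, against 6.47% and 7.66% in vehicle-PDAC 1 and 2. Dendritic cells made up 3.38% and 3.95% in BIBO3304-PDAC 1 and 2, against 2.76% and 3.03% in vehicle-PDAC 1 and 2. Those groups did not overlap, by small margins, and did not pass. Alveolar macrophages, the largest type, made up 31.3% of both BIBO3304-PDAC samples, against 30.8% and 44.5% of vehicle-PDAC 1 and 2. Cancer cells made up 0.604% and 1.54% of BIBO3304-PDAC 1 and 2, against 0.822% and 0% of vehicle-PDAC 1 and 2. The difference between the drug's effects with PDAC cells and without them passed for club cells (2.44, adjusted p = 0.0468), on 11 and 9 cells in BIBO3304-PDAC against 10 and 13 in vehicle-PDAC. By edgeR the club cell share did not pass with PDAC cells (0.44, adjusted p = 0.76). Without PDAC cells it was lower under the drug (-2.00, adjusted p = 0.00329).

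**Figure D5:**
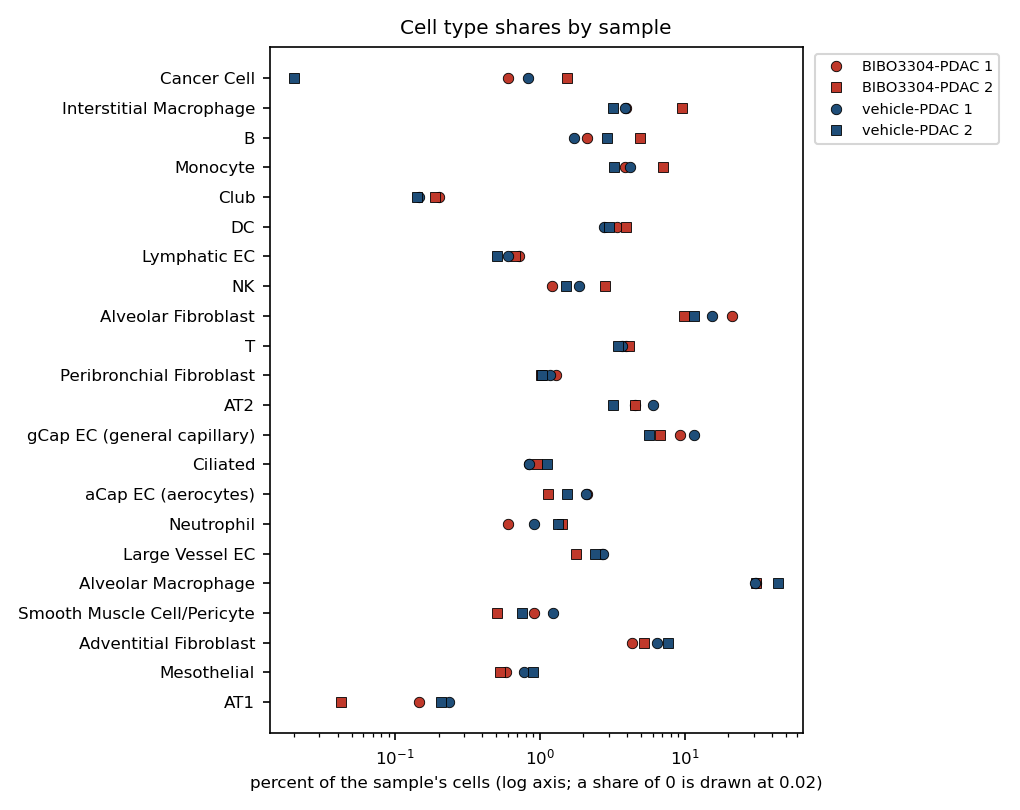
Percent of each sample's cells (log axis) in 22 annotated cell types for BIBO3304-PDAC 1 and 2 and vehicle-PDAC 1 and 2. BIBO3304-PDAC 2 is alone at 9.58% interstitial macrophages, and vehicle-PDAC 2 has 0 cancer cells, drawn at 0.02.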

How the data were processed

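Lung cells were freed by enzymatic digestion, sorted as live cells, fixed and barcoded by a split-pool kit (Parse Evercode WT v3) and sequenced on an Ultima instrument, per the labels' protocols. The authors deposited raw transcript counts for 38003 genes and 80449 cells, together with a table of each cell's sample, treatment, annotated type and percent of mitochondrial transcripts, of which the percent was not used in a test. The submitters' processing notes name Seurat 5.3.0 and the genome build mm39, and the sources used here give no aligner or counting tool. Sample and treatment were taken from the cell table, since the GEO entries are 16 pooled sublibraries that belong to no group. In 99.0% of cells the summed counts equal the deposited transcript count, and no cell barcode was shared between samples.

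Counts were summed per sample and type, with at least 20 cells in each. They were filtered with filterByExpr, scaled by TMM and tested with edgeR 4.0.16 (robust quasi-likelihood) in R 4.3.3, with limma 3.58.1 and Python 3.11.15 (scipy 1.17.1, numpy 2.4.6, pandas 2.3.3). Samples of 6 groups entered each fit outside cancer cells, 15 in 17 types and 14 in lymphatic endothelial and mesothelial cells, where 6-OHDA-PDAC 2 had 17 cells. The cancer cell fit held 5 samples, of the BIBO3304-PDAC, vehicle-PDAC and 6-OHDA-PDAC groups only. Benjamini-Hochberg adjustment was within a type, with a threshold of 0.05. The SE is the log2 fold change divided by the square root of its F. The difference between the drug's effects with PDAC cells and without them is a contrast of the same fit. Cell numbers were tested with edgeR and an exact permutation test. Alternatives were DESeq2 1.42.0 and other scalings, filters, samples and adjustments. Doublets were not removed, and 1 alternative left out the deepest 5% of each type's cells. Scripts were tested on simulated data. The 4 samples held 10916216 to 32580698 transcripts each, and intervals and the floor of 3 counts cover counting error only.

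By rule, the genes named were the 4 largest rises and 4 largest falls, with a mean of at least 20 CPM, in each of the 6 types with most calls, genes called in several types, NPY and adrenergic genes of at least 20 CPM, up to 4 called members of each other list, and the smallest p in types with no call. Other genes named, Npy1r, Foxp1, Casp4 and the list members that did not pass among them, were chosen after their values were seen. The comparison, the gene lists and the markers were chosen with earlier results of these data known. Some genes of the lists are not reported here.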

Additional observations from a re-analysis of the deposited data

Results flagged for a closer look

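For 15 results the effect of BIBO3304 with PDAC cells differed from its effect without PDAC cells by edgeR's test of that difference. The values are differences of log2 fold changes ± SE. Without vehicle-PDAC 2 the count of such differences over all genes was 4105 in place of 523. There 14 of the 15 passed, with AA467197 at 2.63 (adjusted p = 0.0502) the exception, and all 15 kept their sign. In interstitial macrophages they were 3.04 ± 0.69 (adjusted p = 0.0288) for AA467197, 2.53 ± 0.57 (adjusted p = 0.0296) for Hspe1, -2.12 ± 0.41 (adjusted p = 0.00978) for Errfi1, -3.07 ± 0.64 (adjusted p = 0.0183) for Mtmr10 and -2.84 ± 0.51 (adjusted p = 0.00721) for Plxna4. In neutrophils they were -1.78 ± 0.39 (adjusted p = 0.0182) for Antxr2, -2.84 ± 0.50 (adjusted p = 0.00444) for Sfxn5 and -2.33 ± 0.39 (adjusted p = 0.00419) for Sgms2.

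In monocytes Myo1e gave 3.94 ± 0.62 (adjusted p = 0.00553), in B cells Hspa8 gave 1.98 ± 0.39 (adjusted p = 0.0199) and in aerocyte capillary endothelial cells Camk1d gave 1.45 ± 0.30 (adjusted p = 0.0406). The last 4 did not pass for the drug with PDAC cells itself. They were Arntl in adventitial fibroblasts, with -3.42 ± 0.47 (adjusted p = 0.00141), Adra1a in alveolar fibroblasts, with -1.42 ± 0.28 (adjusted p = 0.0182), Gm6225 in alveolar fibroblasts, with -1.30 ± 0.29 (adjusted p = 0.0301), and Rpl39 in ciliated cells, with 3.36 ± 0.65 (adjusted p = 0.0169). Rpl39 has processed pseudogenes, and its counts are uncertain.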

How the results depend on the processing

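The 51 genes called over all types became 511 with no filter on low counts, 391 by DESeq2, 82 without the deepest 5% of cells, 11 with p-values adjusted over all types at once, and 7 to 290 when 1 sample was left out. The total stayed within 1.5 times of 51 with other size factors (50), at least 50 cells (44), the 4 samples alone (34) and the 6 samples with PDAC cells (75). A similar total did not mean the same genes. The 4 samples alone kept 16 of the 51 calls and lost 35. The 6 samples with PDAC cells kept 31 and lost 20. The 36 genes of interstitial macrophages became 101, 76 and 5 with no filter, DESeq2 and adjustment over all types, 15 with the 4 samples alone, and 0 to 105 without 1 sample. Called members of the gene lists numbered 7, and 1 to 35 without 1 sample. Shares that passed numbered 0, and 0 to 1 without 1 sample. Without vehicle-PDAC 1 the vehicle arm has 0 cancer cells, and the test of their share that passed there says nothing. The 860 genes of cancer cells became 426 to 1026, and the 523 differences between effects 40 to 4105, without 1 sample. The cause was not tested. Slc6a2 in large-vessel endothelial cells changed sign, to -0.078 with no filter and to -0.020 without BIBO3304-PDAC 1 (0.087 without BIBO3304-PDAC 2), and passed in none of these. No called gene changed sign where a setting gave it a value (41 of the 51 by DESeq2, 44 at 50 cells). DESeq2 gave no adjusted p for 4247 of the 6443 interstitial macrophage tests.

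With the sample number as a replicate block the count was 137, and 48 of the 51 calls were kept. Same-numbered samples deviated together with a median correlation of 0.209 over types (0.0300 to 0.406), with 2 numbers only and no source that pairs them. Depth limits Npy1r to a test in 1 type.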

Other observations

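Ribosomal protein genes lay higher in BIBO3304-PDAC in every type by their median (median of type medians 0.59, 19 of 19 positive). None of 1127 tests passed by edgeR, and 155 were higher and 0 lower at an unadjusted p under 0.05. The median was 0.09 without vehicle-PDAC 1 and 0.99 without vehicle-PDAC 2. For the drug without PDAC cells it was -0.76. Over cells other than cancer cells these genes made up 0.626% and 1.02% of transcripts in BIBO3304-PDAC 1 and 2, against 0.421% and 0.713% in vehicle-PDAC 1 and 2, so the groups overlapped.

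The length of genes was looked at after the values were seen, with spans from the GRCm38 annotation. Of the 33 genes lower in interstitial macrophages, 20 span over 100 kb (60.6%), against 20.4% of genes tested there, and the longest of the 3 higher genes spans 13.8 kb. The median log2 fold change of genes over 100 kb lay below that of genes under 10 kb in 19 of 19 types. Genes over 100 kb made up 15.7% and 17.5% of interstitial macrophage transcripts in BIBO3304-PDAC 1 and 2, against 23.6% and 12.8% in vehicle-PDAC 1 and 2. The part of gene length in these calls was not tested.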
